A study of Mus musculus with 10 samples.

Results

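Cytosolic ribosomal proteins are the protein components of the ribosomes that translate nuclear-encoded mRNA. Their genes were taken as all probe sets with a single gene symbol in the platform annotation that begins with Rpl or Rps and goes on as a ribosomal protein name does, with Rplp0, Rplp2 and Rpsa included and the Rps6k kinases left out. This gave 105 probe sets for 49 genes, of 45037 probe sets without controls and 18193 genes with a single-symbol probe set. Expression had been measured in fully grown mouse oocytes of the germinal vesicle (GV) stage, which rest in prophase of the first meiotic division. There were 5 arrays of oocytes depleted of CTCF and 5 arrays of wild-type oocytes. The labels give neither strain, age nor method of depletion, nor the number of oocytes pooled. They also leave it unsaid if replicates were separate animals, and p-values here rest on a spread between samples that may be technical. CTCF is a zinc finger protein that binds DNA at insulators and holds chromatin loops together with cohesin.

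Each ribosome has a large and a small subunit, whose proteins are made in matched amounts in growing cells, assembled on rRNA in the nucleolus and exported. Many of the mRNAs start with a short run of pyrimidines, through which growth signals control their translation, and several genes have paralogs that are used in particular tissues. A growing oocyte builds up a store of ribosomes, and the GV oocyte has largely shut down transcription.

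The Ctcf transcript was lower on all 5 depleted arrays, at 2.71% and 3.62% of its wild-type mean signal on its 2 probe sets, and depleted replicate 5 kept the most. Each array gave MAS5 signals, linear values for the brightness of a probe set, with a highest signal of 8130 to 10019. Between 49.4% and 62.9% of probe sets lay above the brightest Bacillus control, which mouse RNA lacks. The ratio of 3-prime to 5-prime control signal was 2.60 to 2.96 on the log2 scale in depleted and 2.80 to 3.11 in wild-type oocytes, and with it as a covariate 7 of the 8 calls described below remained and Rpl37 was lost. All 10 oocyte markers, among them the zona pellucida genes, were tested. Beside 16.4% of all genes tested, limma called 0 of them (2 at an unadjusted p under 0.05). Their summed signal was 47497 to 55184 in depleted and 50698 to 56075 in wild-type oocytes. In pooled cells, fewer cells of a type and less RNA per cell cannot be told apart.

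Most ribosomal protein transcripts differed little between CTCF-depleted and wild-type oocytes, and a handful moved by modest amounts. The brightest probe set of a gene stands for it here, and 46 of the 49 genes were bright enough to be tested. Of these, Rpl7 and Rpl7l1 rose in depleted oocytes, and Rps20, Rpl39l, Rps15, Rpl38, Rpl37 and Rps10 fell (limma, Benjamini-Hochberg adjusted p under 0.05 over 27022 probe sets). The called changes spanned a log2 fold change of -0.35 to 0.41, depleted over wild type. In depleted oocytes the highest called gene thus had 1.33 times, and the lowest 0.783 times, its wild-type level.

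The 2 rises made up 4.35% of the ribosomal protein genes tested, and across all 13811 genes tested 7.26% were called higher. The 6 falls made up 13.0%, and 9.12% of all genes were called lower. Most ribosomal protein genes are bright, so a count over genes whose mean signal was 1000 or more was added, a choice made after seeing the data. Among those, 1 of 33 ribosomal protein genes was called higher beside 7.3% of all such genes, and 5 were called lower beside 8.05%. Counted by probe set, 5 rises and 8 falls were called among 90, where the shares of all probe sets were 5.48% and 7.12%. These shares differ by few genes, and no test of the list was made.

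**Figure D1:**
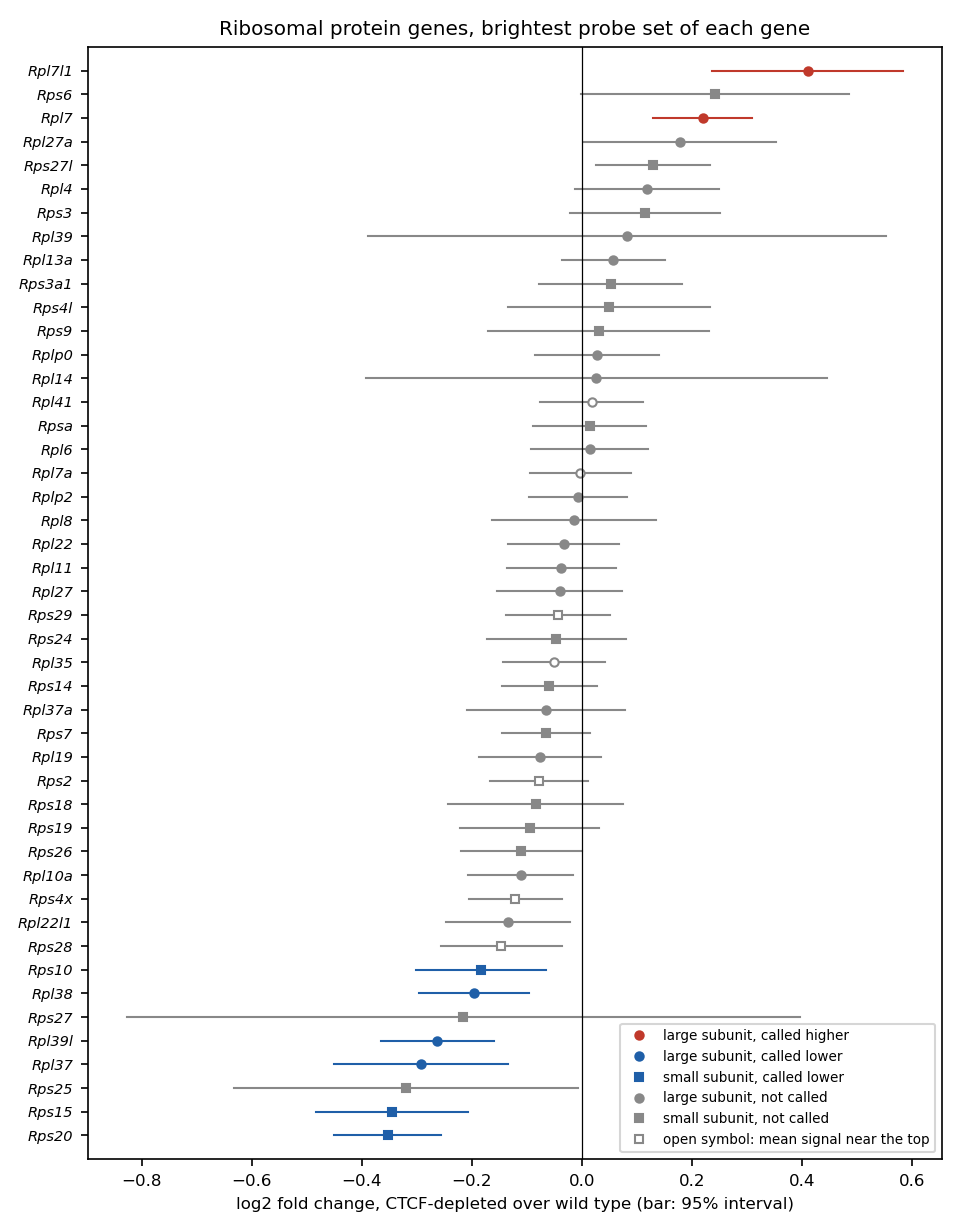
Log2 fold change of each tested ribosomal protein gene (46 genes, brightest probe set), CTCF-depleted over wild type, with 95% intervals from limma as bars. Circles are large and squares small subunit genes, colours mark the 2 genes called higher and the 6 called lower, and open symbols mark the 7 genes with a signal near the top; most points sit close to 0.

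The median log2 fold change was -0.04 over the 46 genes and -0.02 over all genes tested, and 29 of the 46 were below 0. The median size of the change, without its sign, was 0.08 in ribosomal protein genes and 0.16 over all genes. Among all genes at or above that mean signal of 1000 it was 0.07, and it was also 0.07 in the 33 bright ribosomal protein genes. Of the 38 genes that were not called, 30 had a 95% interval within 0.25 either way on the log2 scale, which is 1.19-fold, so a change beyond that lay outside the interval for them. The direction of the counts depends on how arrays are scaled. With every array centred on its median, 3 ribosomal protein genes were called higher and 3 lower, beside 9.95% and 6.67% of all genes. The median then became 0.01 for ribosomal protein genes and 0.03 over all genes. The family's median was thus below that of all genes under both scalings. That order turned without probe sets whose IDs end in _x_at or _s_at, a mark explained below. There the median was -0.0079 over 38 ribosomal protein genes and -0.013 over all genes.

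Small subunit genes had a lower median change than large subunit genes, but few genes of either were called. Among 22 small subunit genes 0 were called higher by limma (1 at an unadjusted p under 0.05) and 3 lower, with a median log2 fold change of -0.07. Among 24 large subunit genes 2 were called higher and 3 lower, with a median of -0.01. The shares over all genes were 7.26% higher and 9.12% lower, so these counts rest on a few genes each. Per array, the mean deviation of the small subunit genes from their 10-array means was -0.08 to 0.01 in depleted and 0.01 to 0.08 in wild-type oocytes. For the large subunit it was -0.04 to 0.04 in depleted and -0.07 to 0.06 in wild-type oocytes, so those groups overlapped fully. The difference between subunits was not tested.

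**Figure D2:**
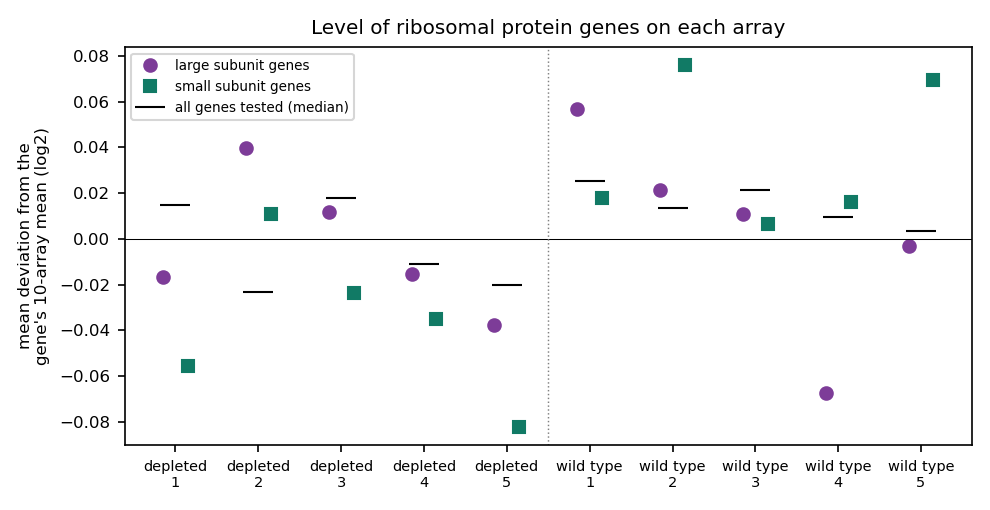
Mean log2 deviation of the large subunit genes (circles, 24 genes) and small subunit genes (squares, 22 genes) from each gene's 10-array mean, on the 5 CTCF-depleted arrays at the left and the 5 wild-type arrays at the right, with the median over all genes tested as a line. Small subunit genes lay highest on wild-type replicates 2 and 5 and lowest on depleted replicate 5, and large subunit genes lowest on wild-type replicate 4.

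Summed over the 46 probe sets, ribosomal protein signal was 97948, 104993, 99359, 95888 and 98898 on depleted arrays 1 to 5, against 101775, 104101, 102105, 100843 and 105443 on wild-type arrays 1 to 5. Depleted replicate 2 reached the wild-type range and the other 4 depleted arrays lay under it. As a share of the summed signal of all tested genes this was 1.47% ± 0.04 in depleted and 1.51% ± 0.02 in wild-type oocytes (SD, n = 5 each).

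The clearest single difference was in Rps20, a protein of the head of the small subunit, whose gene lies on chromosome 4. Its probe set 1456436_x_at read 2532, 2268, 2589, 2654 and 2537 on depleted arrays 1 to 5, against 3059, 3199, 3273, 3216 and 3305 on wild-type arrays 1 to 5. Every depleted array was below every wild-type array, and depleted replicate 2 was the lowest. The means were 2516 ± 147 in depleted and 3211 ± 94.9 in wild-type oocytes (SD, n = 5 each), a log2 fold change of -0.35 ± 0.05 (SE; limma adjusted p = 5.75e-05). A different Rps20 probe set gave 1961 ± 96.3 in depleted and 2496 ± 90.0 in wild-type oocytes, with the same log2 fold change of -0.35 and again no overlap. Both have IDs that end in _x_at, the maker's mark for probes that can also match other sequences. Ribosomal protein genes have many near-identical pseudogenes, so signal from copies cannot be told apart from the gene's own. The brightest probe sets of Rpl7, Rpl38 and Rpl37, described below, carry the same mark. Without IDs in _x_at or _s_at, Rps20, Rpl38 and Rpl37 had no tested probe set left, and Rpl7 was still called.

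Rps15, also in the head of the small subunit and on chromosome 10, fell on both of its probe sets. The brighter, 1416088_a_at, read 893, 1066, 862, 801 and 869 on depleted arrays 1 to 5, against 1102, 1180, 1154, 1106 and 1140 on wild-type arrays 1 to 5. Depleted replicate 2 came near the wild-type range and the other depleted arrays lay well below it. The log2 fold change was -0.34 ± 0.07 (SE; limma adjusted p = 0.00183). The dimmer probe set gave -0.31 ± 0.08 (limma adjusted p = 0.02), with depleted replicate 2 inside the wild-type range.

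Rps10, a protein of the small subunit head that is ubiquitinated when ribosomes collide, was the least certain of the called genes. Probe set 1438723_a_at read 2256, 2411, 2217, 2101 and 2152 on depleted arrays, against 2380, 2468, 2372, 2870 and 2580 on wild-type arrays. Depleted replicate 2 lay above wild-type replicates 1 and 3. The log2 fold change was -0.18 ± 0.06 (SE; limma adjusted p = 0.0387), and the 4 other tested probe sets of Rps10, none of them called, gave -0.07, -0.04, 0.01 and 0.21. The call was lost when any 1 of 7 arrays was left out, with an adjusted p of up to 0.891 over all settings tried.

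**Figure D3:**
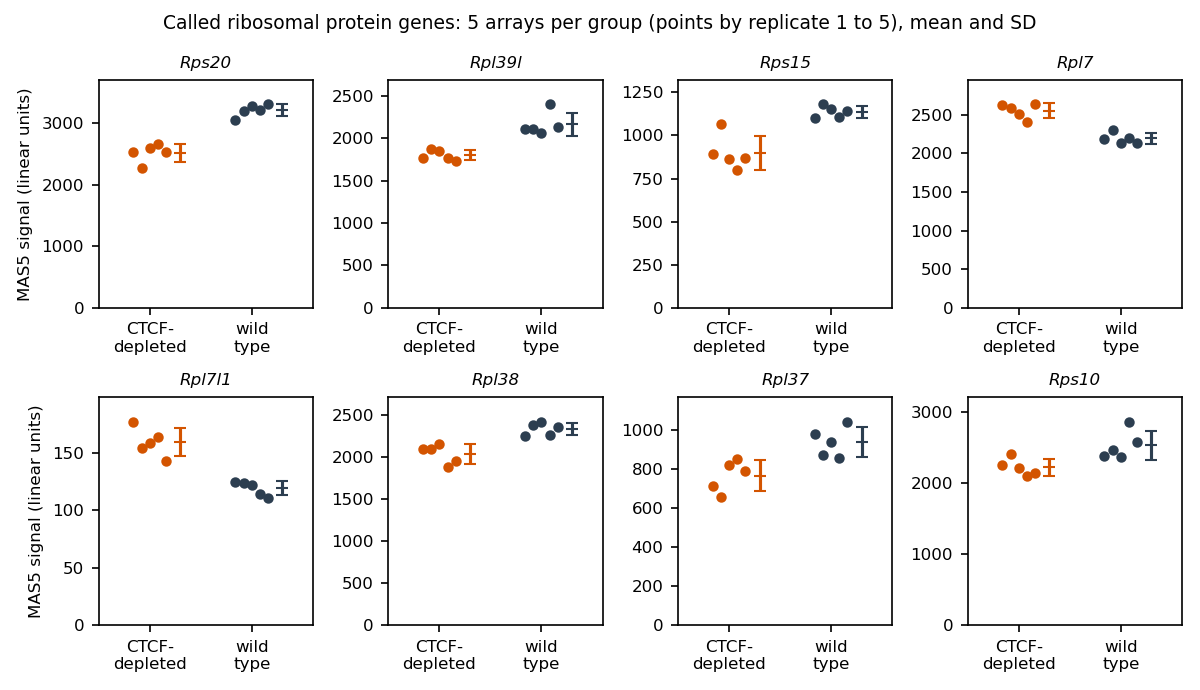
MAS5 signal on each array for the 8 called ribosomal protein genes, with CTCF-depleted arrays at the left and wild-type arrays at the right of each panel, points in order of replicate number, and the mean and SD of 5 arrays beside them. Vertical axes are linear, start at 0 and differ between panels; in 7 of the 8 genes the groups do not overlap, and in Rps10 they do.

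In the large subunit, Rpl38, Rpl37 and the paralog Rpl39l fell. Rpl38, whose loss in the Tail-short mouse disturbs the translation of Hox mRNAs, read 2096, 2087, 2156, 1875 and 1953 on depleted arrays, against 2244, 2373, 2418, 2260 and 2349 on wild-type arrays (probe set 1433472_x_at, chromosome 11). The groups did not overlap, and the log2 fold change was -0.20 ± 0.05 (SE; limma adjusted p = 0.00995). Rpl37, which can also bind the p53 ubiquitin ligase Mdm2, read 710, 656, 820, 847 and 788 on depleted arrays, against 976, 868, 934, 854 and 1041 on wild-type arrays (1438291_x_at, chromosome 15). Depleted replicate 4 and wild-type replicate 4 lay close together at the edge of both groups. Its log2 fold change was -0.29 ± 0.07 (SE; limma adjusted p = 0.0152), and as for Rpl38 no further probe set was tested.

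Rpl7, a large subunit protein that contacts rRNA, rose on each of its probe sets. The brightest, 1415979_x_at on chromosome 1, read 2624, 2589, 2516, 2406 and 2635 on depleted arrays, against 2187, 2309, 2131, 2205 and 2133 on wild-type arrays. All depleted arrays lay above all wild-type arrays, with a log2 fold change of 0.22 ± 0.04 (SE; limma adjusted p = 0.00214). A second probe set gave 0.26 and was called, and the dimmest gave 0.19 and was not (limma adjusted p = 0.131). There wild-type replicate 2 read 283, above all depleted arrays.

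Its paralog Rpl7l1, whose product is related to Rpl7 in sequence, rose as well and by more on the log2 scale. Probe set 1426386_at on chromosome 17 read 177, 154, 159, 164 and 143 on depleted arrays, against 125, 124, 122, 114 and 111 on wild-type arrays. The groups did not overlap, and the log2 fold change was 0.41 ± 0.08 (SE; limma adjusted p = 0.00279). A second probe set gave 119 ± 13.7 in depleted and 92.3 ± 4.69 in wild-type oocytes, a log2 fold change of 0.35 that was called. The dimmest read about the level of the Bacillus controls and gave -0.02. The mean over all 3 probe sets was not called (limma adjusted p = 0.181).

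Rpl39l is a paralog of Rpl39, a small protein that lines the tunnel through which the new peptide leaves the ribosome, and in the mouse it is known from ribosomes of male germ cells. Rpl39l read 1769, 1877, 1852, 1772 and 1734 on depleted arrays, against 2108, 2104, 2065, 2400 and 2139 on wild-type arrays (1423327_at, chromosome 16). All depleted arrays lay below all wild-type arrays, and wild-type replicate 4 stood above the rest. The log2 fold change was -0.26 ± 0.05 (SE; limma adjusted p = 0.00145), and it was called under all 26 other settings tried.

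Over all 46 tested genes, 2 had every depleted array above every wild-type array, as did 6.17% of all genes tested, and 5 had every depleted array below, as did 8.05% of all genes. The depleted array with the most Ctcf left, replicate 5, lay inside the range of the other depleted arrays in 5 of the 8 called genes. It was the highest of them for Rpl7 and the lowest for Rpl39l and Rpl7l1.

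Rpl39, the partner of Rpl39l, was not called, and neither were Rpl22 and its paralog Rpl22l1. Rpl39 read 45.4, 42.3, 58.2, 75.9 and 44.0 on depleted arrays, against 86.5, 55.1, 50.6, 32.3 and 35.2 on wild-type arrays, with a log2 fold change of 0.08 and a 95% interval of -0.39 to 0.55. This interval is wide and includes the value of Rpl39l, so the pair cannot be separated from these arrays. Rpl22, which binds RNA and is needed in T cell development, had 2036 ± 82.4 in depleted and 2085 ± 109 in wild-type oocytes (SD, n = 5 each; limma adjusted p = 0.727), with an interval of -0.13 to 0.07. That interval is for the brightest of the 3 tested Rpl22 probe sets. The dimmer ones gave -0.26 (limma adjusted p = 0.0965) and -0.13 (limma adjusted p = 0.202). Neither was called, but -0.26 lies outside the interval, so the gene is less tightly bounded than its brightest probe set. Its paralog Rpl22l1 had 676 ± 28.0 in depleted and 742 ± 31.9 in wild-type oocytes, a log2 fold change of -0.13 (limma adjusted p = 0.119).

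Rps27l, a paralog of Rps27 that p53 can induce, was near the threshold. Its brightest probe set read 1564, 1623, 1574, 1746 and 1622 on depleted arrays, against 1569, 1535, 1495, 1379 and 1455 on wild-type arrays, with a log2 fold change of 0.13 (limma adjusted p = 0.103). A second probe set, without overlap between groups, gave 0.18 and was called (limma adjusted p = 0.0214), and the dimmest gave 0.20 (limma adjusted p = 0.0609). All 3 probe sets thus had higher means in depleted oocytes. Rps27 itself was dim, at 23.0 ± 12.03 in depleted and 25.8 ± 9.18 in wild-type oocytes, with an interval of -0.83 to 0.40. Paralogs and partners Rpl3l, Rpl10l, Rpl3, Rpl10, Rpl36a and Rpl36al had no tested single-symbol probe set and were not analysed here.

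The stalk of the large subunit, which recruits the elongation factors, showed no called change. Rplp0, the base of the stalk, read 2028, 2448, 2123, 2266 and 2295 on depleted arrays, against 2314, 2273, 2086, 2132 and 2127 on wild-type arrays, so the groups overlapped. Its log2 fold change was 0.03, with a 95% interval of -0.08 to 0.14. Rplp2, a tip protein, had a log2 fold change of -0.01 (-0.10 to 0.08). Rpsa, the small subunit protein also known as the laminin receptor, had 0.01 (-0.09 to 0.12). Only 1 gene of the pair that encodes ribosomal proteins fused to ubiquitin or a relative of it was tested: Fau had 2166 ± 161 in depleted and 2158 ± 50.7 in wild-type oocytes.

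A probe set can be so bright that it responds little to more RNA, and 7 of the 46 genes had a mean signal over 4534, which is 50% of the mean of the arrays' highest signals. These were Rps29, Rpl35, Rpl41, Rps2, Rpl7a, Rps4x and Rps28, and limma called 0 of them (2 at an unadjusted p under 0.05). Of all genes with a mean signal of 1000 or more, 7.3% were called higher and 8.05% lower. With 7 genes, a count of 0 is near those shares. Rps29, a zinc-binding protein of the small subunit, read 6813, 6671, 7116, 6233 and 6464 on depleted arrays, against 6669, 6746, 6765, 6588 and 7550 on wild-type arrays. Its log2 fold change was -0.04 (-0.14 to 0.05), and those of Rpl35, Rpl41, Rps2 and Rpl7a lay between -0.08 and 0.02.

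The X-linked Rps4x was the nearest to the threshold among these bright genes. It read 4442, 4917, 4436, 4303 and 4555 on depleted arrays, against 4992, 4819, 4838, 4901 and 5068 on wild-type arrays, a log2 fold change of -0.12 ± 0.04 (SE; limma adjusted p = 0.0594). Only depleted replicate 2 lay inside the wild-type range, and without that array Rps4x was called. Rps28 had 4451 ± 315 in depleted and 4923 ± 284 in wild-type oocytes (SD, n = 5 each; limma adjusted p = 0.0785), with -0.15, -0.14 and -0.12 on its 3 probe sets. Whether signals this high understate a change was not tested. Leaving out all probe sets near the top changed none of the 8 calls, but none of the called probe sets was near the top. It therefore cannot answer that question.

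**Figure D4:**
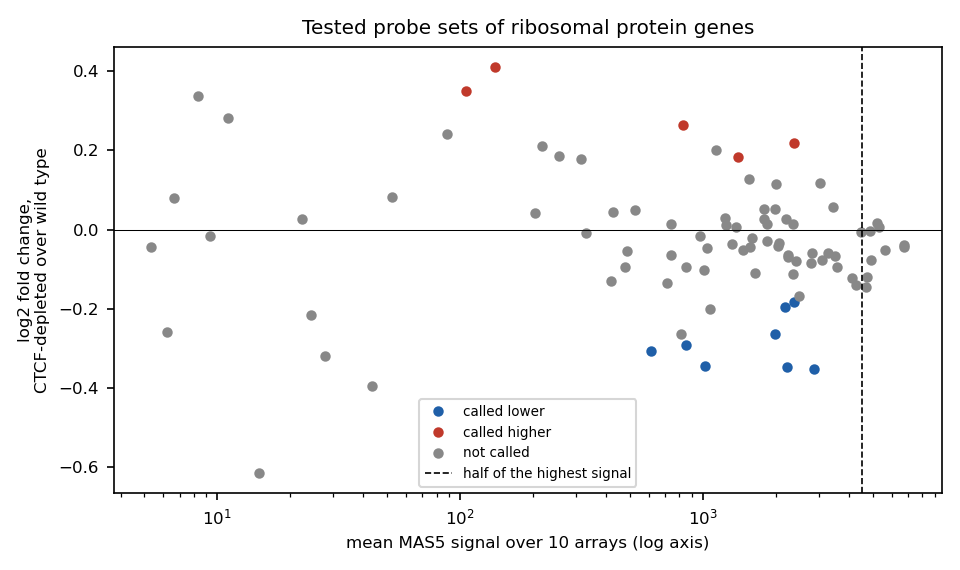
Log2 fold change, CTCF-depleted over wild type, against the mean MAS5 signal over 10 arrays (log axis) for the 90 tested probe sets of ribosomal protein genes; the dashed line marks a signal of 4534. The 5 probe sets called higher and the 8 called lower all lie left of the line, and dim probe sets scatter most.

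At the dim end, the 5 lowest mean signals among tested genes were those of Rpl14, Rps27, Rps25, Rpl39 and Rps6. None passed the test, and their intervals were wide. Rps25, needed by some viral mRNAs for initiation, read 22.5, 23.8, 20.2, 26.2 and 30.1 on depleted arrays, against 34.7, 33.8, 25.2, 30.7 and 31.4 on wild-type arrays (log2 fold change -0.32; limma adjusted p = 0.184). Rps6, the target of the S6 kinases, had 96.3 ± 11.9 in depleted and 81.1 ± 10.9 in wild-type oocytes (limma adjusted p = 0.2). Its dimmer probe set had the opposite sign, but read 5.46 in depleted and 6.94 in wild-type oocytes, about the level of the Bacillus controls. Rpl14 had 23.0 ± 6.96 in depleted and 21.8 ± 2.55 in wild-type oocytes. Rpl12, Rps16 and Rpl3l had only probe sets under the filter and were not tested.

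Several probe sets for a gene often disagreed in sign where the change was small. Of 21 genes with at least 2 tested probe sets, 12 had 1 sign on all of them and 9 had both. The median range between a gene's probe sets was 0.10 on the log2 scale. In Rps6 and Rpl7l1 the opposing sign came from a probe set at about the level of the Bacillus controls. Among the called genes, Rps20, Rps15 and Rpl7 kept their direction on each tested probe set, Rpl7l1 and Rps10 did not, and Rpl39l, Rpl38 and Rpl37 had 1 tested probe set each. The widest range, 0.67, was in Rps18, where a dim probe set gave -0.62 and was not called.

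**Figure D5:**
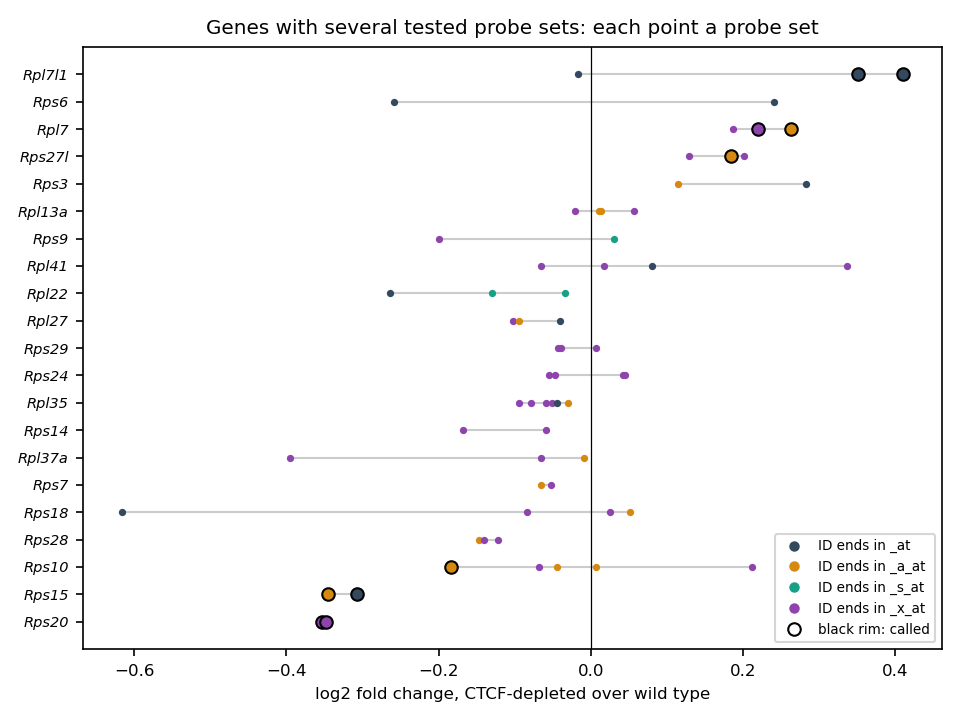
Log2 fold change, CTCF-depleted over wild type, of every tested probe set of the 21 ribosomal protein genes with at least 2, 1 gene a row, coloured by the ending of the probe set ID, with a black rim where called. Both Rps20 points lie together near -0.35, and points of Rps10, Rps6 and Rps18 fall on both sides of 0.

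A further 110 probe sets list a ribosomal protein gene beside other symbols, and 29 ribosomal protein symbols were found only there. They cannot be assigned to 1 gene and were left out of the counts above. Of the 98 of them that were tested, 3 were called higher and 8 lower, beside 5.48% and 7.12% of all probe sets, with a median log2 fold change of -0.02.

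The ribosomal protein genes lie on 17 chromosomes, and the 8 called genes lie on chromosomes 1, 4, 10, 11, 15, 16 and 17, with Rpl7l1 and Rps10 both on 17. Reference promoters were read to show which sequence features these genes share, from RefSeq windows of 300 bases, 250 before to 50 after the start, of assembly GRCm38.p6. Windows were found for 43 of the 49 genes, and Rpl7, Rpl8, Rps14, Rps20, Rps29 and Rps4l had none in the table. A motif was counted on both strands wherever its letters occurred. The core CCGGAAG, bound by ETS family factors, was in 21 of 43 genes (48.8%) and in 9.93% of all 27025 genes with a window. It was in 4 of the 6 called genes with a window, and for these the 100 bases before the start are shown, 5′ to 3′ on the gene's strand, with the core in capitals, for Rpl37 (chr15:5116513-5116612, plus strand), Rpl38 (chr11:114668480-114668579, plus), Rps10 (chr17:27635245-27635344, minus) and Rpl39l (chr16:10170128-10170227, plus):
Rpl37: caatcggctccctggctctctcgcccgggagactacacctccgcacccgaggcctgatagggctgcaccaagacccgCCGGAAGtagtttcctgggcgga
Rpl38: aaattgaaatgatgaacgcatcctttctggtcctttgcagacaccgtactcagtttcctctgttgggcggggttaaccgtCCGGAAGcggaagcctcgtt
Rps10: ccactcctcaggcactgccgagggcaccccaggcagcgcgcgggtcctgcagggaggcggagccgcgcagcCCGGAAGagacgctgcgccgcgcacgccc
Rpl39l: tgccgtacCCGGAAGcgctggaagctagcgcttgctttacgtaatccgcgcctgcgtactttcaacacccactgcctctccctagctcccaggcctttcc

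The sequence TCTCGCGA was in 9 genes (20.9%) and 1.13% of all genes, the core AAGATGGC of the factor YY1 in 4 (9.30%) and 3.19%, and TATAAA in 6 (13.95%) and 15.7%. Of the called genes, 0 held TCTCGCGA, 1 the YY1 core (Rpl7l1) and 0 TATAAA. These counts describe the windows and were not tested.

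A run of at least 8 pyrimidines was searched for between 20 bases before and 30 after the start. This is looser than a run at the very start of the mRNA, the feature of mRNAs that respond to growth signals. It was found in 23 of 43 genes (53.5%) and 21.5% of all genes. Called and uncalled genes occurred on both sides, and 2 of the 6 called genes with a window had such a run. Rpl37, lower in depleted oocytes, had none and is not shown. Rpl38 and Rps10, both lower in depleted oocytes, and Rpl35, with no called change, had such runs, and Rps15 and Rpl39l, also lower, and Rpl7l1, which was higher, had none. Their 30 bases around the start, 10 before and 20 from it on, are shown to compare them, with runs in capitals, at chr11:114668570-114668599 (plus), chr17:27635225-27635254 (minus), chr2:39005112-39005141 (minus), chr10:80292421-80292450 (plus), chr16:10170218-10170247 (plus) and chr17:46782637-46782666 (minus), in the order listed:
Rpl38: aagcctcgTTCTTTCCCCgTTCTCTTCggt
Rps10: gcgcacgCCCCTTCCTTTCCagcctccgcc
Rpl35: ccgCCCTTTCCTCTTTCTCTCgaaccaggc
Rps15: cagagctcgcgataactgcgcaagcgcagc
Rpl39l: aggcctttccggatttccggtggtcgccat
Rpl7l1: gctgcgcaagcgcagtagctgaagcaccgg

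Because CTCF was the protein depleted, the windows were also searched for the core of the CTCF consensus, in its standard form with degenerate letters. It was in 2 genes, Rplp0 and Rps4x (4.65%), and in 0.522% of all genes. Neither gene was called. Both cores are shown in capitals within 30 bases, at chr5:115559282-115559311 (plus) and chrX:102189426-102189455 (minus), and begin 177 and 56 bases before the start. Binding was not measured, and the letters alone do not show it:
Rplp0: gctccgacCCAGCAGAGGGCAgcaggtctg
Rps4x: acctcccaCCAGCAGATGGCAagagagagt

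Genes that make or use ribosomes were counted from lists written from general knowledge, to be read beside the 7.26% of all genes called higher and 9.12% called lower. In rRNA transcription by RNA polymerase I, 3 of 18 tested genes rose and 0 fell by limma (1 at an unadjusted p under 0.05), and the median log2 fold change was 0.09. Znrd1, a subunit of the polymerase, had 1299 ± 70.0 in depleted and 920 ± 53.2 in wild-type oocytes (SD, n = 5 each), a log2 fold change of 0.50 (limma adjusted p = 1.16e-05). Taf1c and Taf1a, of the promoter selectivity factor, rose by 0.70 and 0.15 with overlapping groups. The call of Taf1a was lost under 11 of the 26 other settings and that of Taf1c under 3 of 25, whereas Znrd1 was called under all 26, and the count of rises ran from 1 to 4.

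Among 70 genes of ribosome assembly in the nucleolus 4 rose and 3 fell, with a median of 0.02. Nop10, a protein of the particles that turn uridine into pseudouridine in rRNA, fell most: it read 1139, 940, 1245, 1289 and 1242 on depleted arrays, against 1922, 1694, 1773, 1670 and 1964 on wild-type arrays. The groups were far apart, with a log2 fold change of -0.63 ± 0.08 (SE; limma adjusted p = 3.11e-05). Utp6 and Utp15, of the complex that processes small subunit rRNA, had -0.38 and -0.30. Gnl3, nucleostemin, rose by 0.19. The 3 further rises, named after their values were seen, were Ddx56, Riok2 and Tsr3. The count of rises ran from 1 to 5 when 1 array was left out, with 1 without depleted replicate 2 or 4, and it was 0 with no intensity trend and with the 3-prime to 5-prime covariate. Nop10 and Utp6 were called under all 26 settings.

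Of 35 initiation factors 5 rose and 1 fell, with a median of 0.02. Eif2b5, the catalytic subunit of the factor that recharges eIF2, rose by 0.39, and the eIF3 subunit Eif3f fell by 0.14, a call lost under 15 of the 26 other settings. Eif4e2, a cap-binding repressor, and the eIF3 subunit Eif3m rose by 0.23 and 0.28, but the mean over their probe sets gave -0.01 for each. Eif4g3 and Eif3b were the other rises, named after their values were seen. Leaving out 1 array gave 3 or 4 rises and 0 to 4 falls, the 4 falls without depleted replicate 2, and over all settings the rises ran from 0 to 6. Of 10 elongation factors limma called 0 (4 at an unadjusted p under 0.05). In growth signalling to ribosomes, Larp1, which binds mRNAs that start with pyrimidine runs, and Larp4b were the 2 of 20 genes that rose, by 0.49 and 0.20, and 0 fell (0 at an unadjusted p under 0.05). Larp1 lost its call under 5 settings and Larp4b under 4, among them without depleted replicate 2, where it was 0.11. The count of rises ran from 0 with no intensity trend to 6 with the mean over probe sets.

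Markers of the follicle cells that surround the oocyte were read beside the same shares of all genes, 7.26% higher and 9.12% lower. Of 11 tested granulosa and cumulus markers, 3 rose (Ptgs2, Fshr and Nr5a2) and 0 fell by limma (2 at an unadjusted p under 0.05). The list had no common direction: 7 of the 11 were below 0 and its median log2 fold change was -0.10. Kitl, a growth factor that granulosa cells give to the oocyte, had 61.5 ± 13.5 in depleted and 84.0 ± 13.3 in wild-type oocytes with no overlap (log2 fold change -0.45; limma adjusted p = 0.0628), and Has2, a hyaluronan synthase, had -0.96 (limma adjusted p = 0.0547); both were chosen after their values were seen. Ptgs2 averaged 4.11 in wild-type oocytes, with 0 of 5 arrays above the Bacillus controls. Has2 averaged 4.27 in depleted oocytes, with 1 of 5 arrays above them. Both means lie under the filter's signal of about 5.13, so the size of these 2 changes rests on values near the floor. Tnfaip6 was under the filter, and Cyp19a1 and Lhcgr were not analysed here. The summed signal of the list was 765 to 932 in depleted and 691 to 1280 in wild-type oocytes, so the groups overlapped. Only wild-type replicate 2 reached 1280, with 691 to 808 on the other wild-type arrays. There Inha read 536, with 121 to 188 on the others, Inhba 135 (31.2 to 62.8) and Hsd17b1 93.8 (27.1 to 43.7). These genes, named after their values were seen, are among those below 0. The part of follicle cell signal in the ribosomal protein differences was not tested. Of 3 blood and 7 stromal markers tested limma called 0 (0 at an unadjusted p under 0.05), beside 16.4% of all genes.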

How the data were processed

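Per the labels' protocols, total RNA was isolated with a Picopure kit and biotin-labelled cRNA was made from it by a method for small samples. The authors deposited intensity values, 1 linear signal for each of 45101 probe sets on every array. Per the submitters' processing notes MAS5 produced them, and its version was not given in the sources used here. The deposited signals had the same mean on all 10 arrays, 150.001 after leaving out the lowest and highest 2%, so levels are relative to the total. Sample titles gave the groups and replicate numbers.

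The 64 control probe sets were left out. The log2 of signal plus 2.47 (the 25th percentile of all values) was used, so changes of dim genes are understated. No test was made of probe sets under the 40th percentile of mean log2 value, a signal of about 5.13. The comparison used limma 3.58.1 in R 4.3.3 (lmFit, then eBayes allowing a trend with intensity). Benjamini-Hochberg adjustment ran over 27022 probe sets. An adjusted p under 0.05 made a call. All 49 gene IDs matched a RefSeq table of assembly GRCm38.p6, which gave chromosomes. The number of arrays limits the precision.

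The members, the lists and the tests were chosen with earlier results of these data known. Genes named were Ctcf, all called ribosomal protein genes, paralogs with partners, stalk proteins, the 5 brightest and 5 dimmest genes, and up to 4 called genes of each other list. Others were named after their values were seen. Data for this comparison were simulated over 27022 probe sets, with changes placed only in 200 probe sets of mean signal 1000 or more. The fit recovered 22% of 100 changes of 0.2 (log2) and 80% of 100 changes of 0.35. Of 106 calls 4 were false. Recovery in dimmer probe sets was not simulated. The measured arrays gave far more calls, 1481 rises and 1925 falls, so the adjusted threshold differed.

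Alternatives were other offsets, filters, scalings, variance models and thresholds, weights per array, replicate number as a block, the 3-prime to 5-prime ratio as a covariate, other ways to represent a gene, and leaving out arrays. Same-numbered arrays of the groups had correlations of 0.002 to 0.05 in their deviations from the group means, so the numbers were not taken to pair them.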

Additional observations from a re-analysis of the deposited data

Results flagged for a closer look

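Among 46 genes named, each group of 5 arrays was checked for an array whose gap to the nearest other exceeded 0.71 of the group's range. Of 92 groups 5 were picked out this way, and chance picks out about 1 in 20, or 4.6 here. All 5 were wild-type arrays. Rpl39l read 2400 on wild-type replicate 4, with 2065 to 2139 on the other wild-type arrays. Rps29 read 7550 on wild-type replicate 5, with 6588 to 6765 on the others. Rps2 read 5175 on wild-type replicate 5, with 4999 to 5036 on the others. Taf1a read 3023 on wild-type replicate 4, with 2728 to 2791 on the others. Eif2b5 was low on wild-type replicate 5, at 89.7, with 111 to 118 on the others.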

How the results depend on the processing

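Besides the values reported, 26 other settings were tried. The count of ribosomal protein genes called higher was 2 or 3 in every setting, beside 3.82% to 10.3% of all genes. The count called lower was 3 with median centring, 3 with no intensity trend and 3 without probe sets whose IDs end in _x_at or _s_at. In the last of these 38 genes had a probe set left. The shares of all genes called lower were 6.67%, 7.36% and 8.75%. The median log2 fold change was 0.0093 with median centring, beside 0.034 over all genes. Without IDs in _x_at or _s_at it was -0.0079, above the -0.013 over all genes. Leaving out 1 array at a time gave 2 to 3 genes called higher, 5 to 9 called lower and a median of -0.06 to -0.02. The shares of all genes were then 5.68% to 7.03% higher and 7.58% to 8.97% lower. Rps20, Rpl39l, Rps15 and Rpl7 were called under every setting that tested them. Rpl38 was lost with median centring and with no intensity trend, and Rpl37 under both of these, with the 3-prime to 5-prime covariate, at a threshold of 0.01, and without depleted replicates 2 and 5 together, a choice made after seeing the data. Rpl7l1 was lost with the mean over probe sets. Rps10 was lost under 13 settings, among them without depleted replicate 1, 3, 4 or 5 and without wild-type replicate 2, 4 or 5. Rps4x was gained without depleted replicate 2, without depleted replicates 2 and 5, with the filter at the 60th percentile, with array weights, with the 3-prime to 5-prime covariate and with the mean over probe sets. Rps27l was gained with median centring, with the mean over probe sets and without IDs in _x_at or _s_at, and Rps28 with array weights and without depleted replicate 2. Rpl19 was gained without depleted replicate 2 and Rpl4 without wild-type replicate 1. The causes were not tested.

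With the replicate number as a block, 2 ribosomal protein genes were called higher and 5 lower, beside 7.65% and 9.40% of all genes. Only Rps10 was lost (limma adjusted p = 0.0511), and the median stayed at -0.04. The block changed no other call among the ribosomal protein genes, and of the other genes named it ended that of Eif3f.

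Genes with changes near 0 turned direction. With median centring the log2 fold change was 0.018 for Rpl22, 0.044 for Rplp2, 0.0079 for Rps29, 0.00029 for Rpl35 and 0.048 for Rpl7a. With quantile normalization it was 0.020 for Rplp2, 0.030 for Rpl7a and -0.0022 for Fau. With array weights it was -0.0059 for Rpsa, -0.022 for Rpl14 and -0.014 for Fau. With the 3-prime to 5-prime covariate it was 0.14 for Rps27, -0.041 for Rplp0, -0.028 for Rpsa and -0.037 for Fau. With the mean over probe sets it was -0.0086 for Rps6, -0.0081 for Eif4e2 and -0.012 for Eif3m. Without probe sets near the top it was -0.065 for Rpl41. Without depleted replicates 2 and 5 it was 0.21 for Rps27, -0.032 for Rplp0, -0.027 for Rpsa, -0.014 for Rpl41 and -0.067 for Fau. Leaving out 1 array at a time, Rplp2 ranged from -0.038 to 0.020, Rpl7a from -0.029 to 0.027, Rpl14 from -0.080 to 0.20, Rplp0 from -0.0061 to 0.062, Rpsa from -0.021 to 0.037, Rpl41 from -0.011 to 0.043, Fau from -0.038 to 0.027 and Rpl39 from -0.059 to 0.28.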
